A study of Danio rerio with 6 samples.

Results

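The 10 genes described here make, break down or sense retinoic acid. They were taken by symbol from the deposited array table and comprise the synthesis genes *aldh1a2* and *rdh10a*, the retinaldehyde reductase *dhrs3a*, the breakdown genes *cyp26a1*, *cyp26b1* and *cyp26c1*, and the receptors *raraa*, *rarab*, *rarga* and *rargb*. All 10 were found among 25857 named genes, and 12 of the 75212 transcript clusters on the array carry their symbols. Adult zebrafish of 1 family, homozygous for *drl:EGFP*, were mass-mated on 3 separate occasions, and pooled embryos at the 2 somite stage were dissociated and sorted. In this line EGFP is under the control of the *draculin* (*drl*) regulatory element, which is active in the early lateral plate mesoderm, the tissue that gives rise to heart, vessels, blood, kidney and pectoral fin. The EGFP-positive fraction and the EGFP-negative remainder of the embryo, each free of propidium iodide and thus alive, were hybridized to one-colour Affymetrix ZebGene arrays, 3 per fraction. Both fractions came from transgenic embryos, and EGFP marks reporter activity rather than a single cell type.

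Retinoic acid is made from vitamin A. Retinol dehydrogenases such as Rdh10 oxidize retinol to retinaldehyde, Dhrs3 turns retinaldehyde back into retinol, and Aldh1a2 carries out the final, irreversible oxidation to retinoic acid. Cyp26 enzymes degrade the product, so that a mesodermal source next to Cyp26-expressing tissue yields graded signalling, which patterns the hindbrain and sets the size of the heart field and the start of the pectoral fin. The acid binds retinoic acid receptors (RARs), which act on DNA with retinoid X receptor (RXR) partners. Loss of *aldh1a2* and of *cyp26a1* underlies the zebrafish mutants *neckless* and *giraffe*.

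Each value is a normalized log2 signal for the probes of 1 transcript cluster, and a difference of 1 is a doubling of signal. Array medians lay between 5.02 and 5.10. Arrays of 1 fraction correlated over the clusters at 0.988 to 0.991 and arrays of different fractions at 0.978 to 0.987 (Pearson's r, over clusters that are no independent replicates). Markers are counted here as higher or lower at an adjusted p under 0.09 in limma. The EGFP-positive fraction was higher in all 9 measured lateral plate markers, with a median log2 difference of 3.76, and *drl* itself was higher by 3.64. It was also higher in 6 of 8 markers of endoderm and hatching gland, with a median of 2.13, and lower in 10 of 16 neural plate and 7 of 9 epidermis markers, with medians of -1.14 and -1.76. Of 14 paraxial and presomitic mesoderm markers, 3 were higher and 1 was lower, and of 7 notochord and axial mesoderm markers 1 was higher and 3 were lower.

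The question of the comparison was how the cells marked by *drl:EGFP* differ from the rest of the embryo. Of the 10 genes, 5 were higher in the EGFP-positive fraction and 2 were lower at an adjusted p under 0.09 in limma. Both synthesis genes and *dhrs3a* were among the higher, *cyp26a1* and *cyp26b1* were the lower, and *raraa* and *rarab* were higher by smaller amounts. Over all named genes, 4.13% were called higher and 3.48% lower. The median log2 difference of the 10 genes was 0.36, against -0.0045 over all named genes. In 6 of the 10 genes all EGFP-positive arrays lay above all EGFP-negative arrays, and in 3 all lay below, where the shares over all named genes were 12.9% and 12.6%. In bulk RNA of a fraction, fewer cells that express a gene and less RNA per cell cannot be told apart. For 1 gene on 3 arrays against 3, the smallest p of an exact permutation test (two-sided) is 0.1, and each of these 9 genes reached it.

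**Figure D1:**
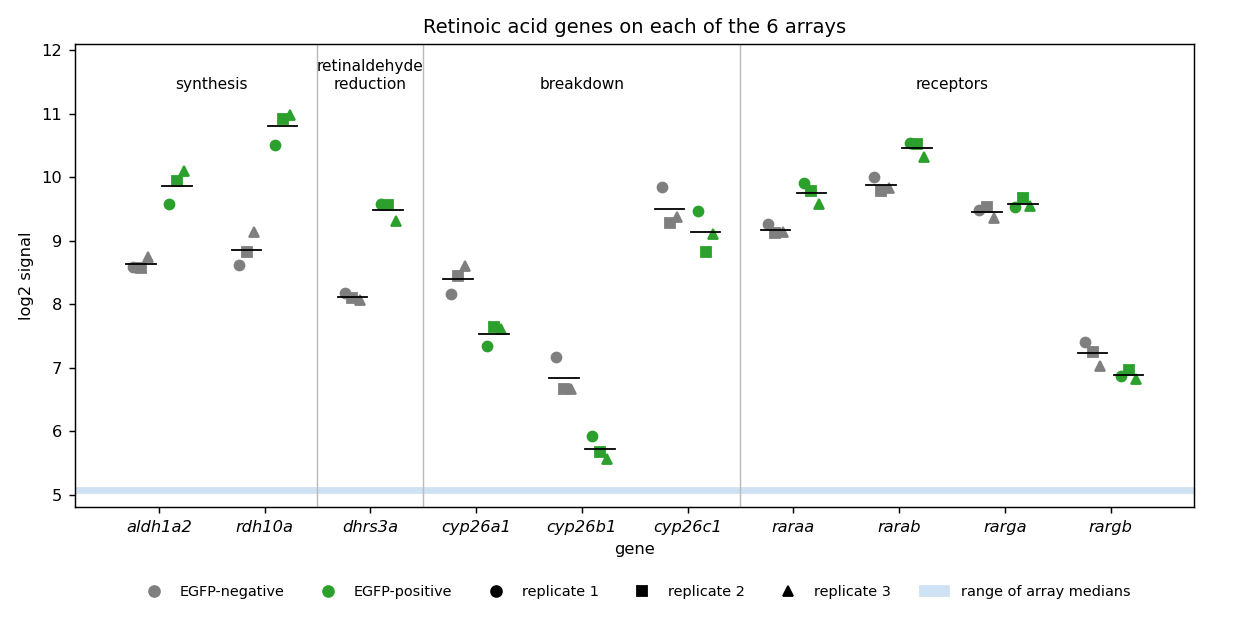
Log2 signal of the 10 retinoic acid genes (x axis) on each array (y axis), in grey for EGFP-negative and green for EGFP-positive, with a symbol for each replicate number and a line at the mean of 3 arrays. The green points lie above the grey ones for *aldh1a2*, *rdh10a*, *dhrs3a*, *raraa*, *rarab* and, narrowly, *rarga*, lie below them for *cyp26a1*, *cyp26b1* and *rargb*, and mix with them for *cyp26c1*, and the blue band spans the array medians.

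Of the synthesis genes, *rdh10a*, which feeds the pathway with retinaldehyde, had the larger difference. Its cluster has 24 probes on the minus strand of chromosome 24, from 13155613 to 13176976 on Zv9, the build of all positions given here. The EGFP-negative arrays read 8.62, 8.83 and 9.13, and the EGFP-positive arrays 10.50, 10.92 and 10.98. The fractions were more than 1 unit apart at their closest, while arrays within a fraction spread by about 0.5. The mean difference was 1.94 ± 0.18 (SE, n = 3 per fraction), a 3.83-fold higher signal (limma, adjusted p = 0.00184), which ranked 101 from the top of the 25857 genes by log2 difference.

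*aldh1a2*, the enzyme that makes retinoic acid itself in early mesoderm, lies on the minus strand of chromosome 7 from 31663416 to 31704040 and is covered by 18 probes. Its signal was 8.59, 8.57 and 8.74 on the EGFP-negative arrays and 9.57, 9.94 and 10.09 on the EGFP-positive arrays. The EGFP-negative arrays lay close together, and the EGFP-positive arrays were spread more widely, with replicate 1 the lowest. The difference of 1.23 ± 0.14 (SE, n = 3 per fraction) amounted to a 2.35-fold higher signal, with a 95% interval of the log2 difference from 0.90 to 1.57 (limma, adjusted p = 0.00525).

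For both synthesis genes EGFP-positive replicate 1 was the lowest of its fraction. The 9 lateral plate markers did not move together on this array, where 6 were the highest of the EGFP-positive arrays, 2 were in the middle and 1, *drl* itself, was the lowest, at 9.73 against 9.99 and 10.07. The haemangioblast gene *tal1* read 9.84 there against 8.53 and 8.03 on the other EGFP-positive arrays, while *hand2*, a marker of the cardiac and other lateral plate, varied only from 9.09 to 9.19. In the other marker lists most genes were lowest on EGFP-positive replicate 1. These were 10 of 14 paraxial and presomitic mesoderm markers, with 1 the highest, and 12 of 16 neural plate markers, with 2 the highest. So were 6 of 9 epidermis markers and all 7 of notochord and axial mesoderm, with none the highest. Of 8 endoderm and hatching gland markers, 6 were the lowest and 1 was the highest. The linear signals of the 9 lateral plate markers summed to between 8781 and 12039 on the EGFP-positive arrays and between 602 and 944 on the EGFP-negative arrays. The part of these marker differences in the spread of the synthesis genes was not tested, and without EGFP-positive replicate 1 both genes were still called.

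*dhrs3a* works against *rdh10a* by reducing retinaldehyde, and it too was higher in the EGFP-positive fraction. The gene is covered by 23 probes on the plus strand of chromosome 23, from 21957773 to 21968821. The EGFP-negative arrays gave 8.18, 8.10 and 8.06, and the EGFP-positive arrays 9.58, 9.56 and 9.31. Of the 10 genes it had the tightest EGFP-negative values, with an SD of 0.061, and no EGFP-positive array came near them. The difference was 1.37 ± 0.10 (SE, n = 3 per fraction), or 2.59-fold (limma, adjusted p = 0.000875). Set against *rdh10a* on the same array, the log2 difference of both genes moved by 0.57 ± 0.28 (SE) between fractions and the arrays overlapped, so an unequal rise of the opposed enzymes was not resolved.

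Of the breakdown genes, 2 of 3 were lower in the EGFP-positive fraction. *cyp26a1*, the main early Cyp26 enzyme, has 24 probes on the minus strand of chromosome 12 from 9708963 to 9712557. Its signal was 8.17, 8.44 and 8.61 on the EGFP-negative and 7.34, 7.64 and 7.61 on the EGFP-positive arrays. All EGFP-positive arrays were the lower ones, and the fractions were separated by about as much as the arrays of 1 fraction differed. The log2 difference was -0.87 ± 0.14 (SE, n = 3 per fraction), a 1.83-fold lower signal (limma, adjusted p = 0.0212).

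*cyp26b1*, which in the embryo is expressed in the hindbrain among other sites, is read by 19 probes on the plus strand of chromosome 7 from 26490839 to 26515697. It gave 7.16, 6.67 and 6.67 on the EGFP-negative arrays and 5.92, 5.67 and 5.56 on the EGFP-positive arrays. The EGFP-positive values lay within 1 unit of the array medians, and in each fraction replicate 1 was the highest. With a difference of -1.12 ± 0.17 (SE, n = 3 per fraction), the signal was 2.17-fold lower (limma, adjusted p = 0.0149), and the 95% interval of the log2 difference ran from -1.51 to -0.72.

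*cyp26c1*, the third enzyme of the family, did not pass the threshold. It has 21 probes on the minus strand of chromosome 17 from 19353009 to 19365469. The EGFP-negative arrays read 9.85, 9.28 and 9.37 and the EGFP-positive arrays 9.47, 8.83 and 9.11. The fractions overlapped, since EGFP-positive replicate 1 lay above both EGFP-negative replicates 2 and 3. The log2 difference of -0.37 ± 0.21 (SE, n = 3 per fraction) had a 95% interval from -0.86 to 0.12 (limma, adjusted p = 0.49), and the exact two-sided permutation p was 0.3. The interval comes close to the -0.87 of *cyp26a1* but does not reach the -1.12 of *cyp26b1*. Whether the genes of the family differ in their change was not tested.

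EGFP-negative replicate 1 was the highest array for both *cyp26b1* and *cyp26c1*. The neural plate markers were divided on that array, with 8 of 16 the highest of the EGFP-negative arrays, 6 in the middle and 2 the lowest. The hindbrain gene *egr2b* was among the highest, at 8.34 against 7.37 and 7.44, and *sox1a* was among the lowest, at 6.40 against 6.96 and 6.99. On EGFP-positive replicate 1, where *cyp26b1* and *cyp26c1* were again the highest of their fraction, 12 of the 16 markers were the lowest. *cyp26a1* was instead the lowest of its fraction on both arrays, at 8.17 on EGFP-negative and 7.34 on EGFP-positive replicate 1. Of the 16 neural plate markers, 10 were lower in the EGFP-positive fraction, with summed linear signals of 6578 to 7666 against 13211 to 14370 in the EGFP-negative fraction. The part of neural tissue in the lower *cyp26* signal was not tested. Without EGFP-negative replicate 1 the log2 difference of *cyp26b1* was -0.95 and was still called (limma, adjusted p = 0.0234).

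**Figure D2:**
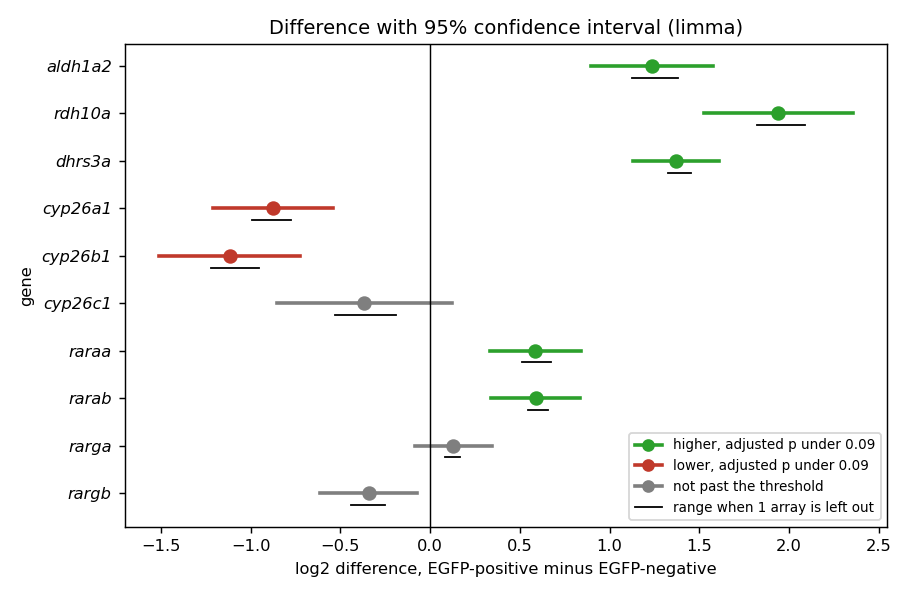
Log2 difference between EGFP-positive and EGFP-negative means (x axis) of each gene (y axis), with coloured bars for the 95% confidence interval of the limma fit and thin black bars for the range over the 6 fits that each leave out 1 array. Synthesis genes and *dhrs3a* lie between 1.23 and 1.94, *cyp26b1* and *cyp26a1* at -1.12 and -0.87, and no range of the leave-out fits crosses 0.

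Taken within each array, the signal of *aldh1a2* minus that of *cyp26a1* tracks how unequally a source and a sink gene changed, while the offset between probes has no meaning of its own. It was 0.42, 0.14 and 0.13 in the EGFP-negative fraction and 2.24, 2.30 and 2.48 in the EGFP-positive fraction. The fractions were far apart and the arrays within each were close, and the shift was 2.11 ± 0.12 (SE, n = 3 per fraction). Against *cyp26b1* the values were 1.42, 1.91 and 2.07 in the EGFP-negative and 3.65, 4.27 and 4.53 in the EGFP-positive fraction, a shift of 2.35 ± 0.33. Against *cyp26c1*, which alone was not called, the EGFP-negative arrays gave -1.27, -0.71 and -0.63 and the EGFP-positive arrays 0.11, 1.11 and 0.98, a shift of 1.60 ± 0.37. In all 3 pairs the fractions did not overlap, and replicate 1 was the lowest EGFP-positive array. All 3 pairs share *aldh1a2*, so they are not independent. For *cyp26a1* and *cyp26b1* the lack of overlap followed from that of the single genes. For *cyp26c1*, whose own fractions overlapped, *aldh1a2* alone differed by 1.23.

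**Figure D3:**
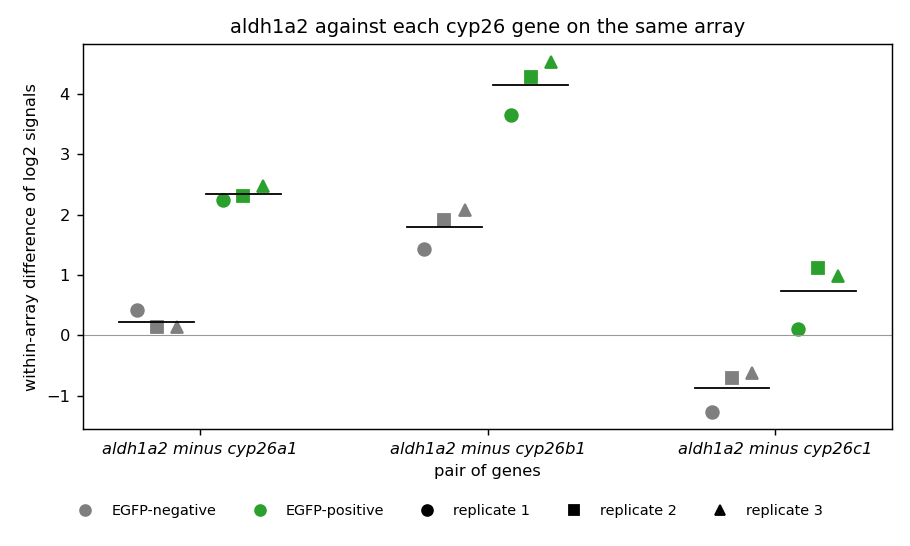
Log2 signal of *aldh1a2* minus that of each *cyp26* gene on the same array (y axis) for the 3 pairs (x axis), in grey for EGFP-negative and green for EGFP-positive, with symbols for replicate numbers and lines at the means. In each pair the green points sit above the grey ones, by 2.11, 2.35 and 1.60 between means.

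Among the receptors, the paralogues of RAR alpha rose by nearly the same amount. *raraa* has 13 probes on the plus strand of chromosome 12 from 12186820 to 12263320, and its EGFP-negative arrays gave 9.26, 9.12 and 9.14 against 9.90, 9.79 and 9.58 for EGFP-positive. The fractions were apart by about 0.3, and EGFP-positive replicate 3 was the nearest to the EGFP-negative arrays. The difference was 0.59 ± 0.11 (SE, n = 3 per fraction), or 1.50-fold (limma, adjusted p = 0.0337).

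*rarab* is read by 16 probes on the minus strand of chromosome 3 from 33201407 to 33312201, with 10.01, 9.79 and 9.83 on the EGFP-negative and 10.54, 10.53 and 10.32 on the EGFP-positive arrays. As for *raraa*, EGFP-positive replicate 3 was the lowest of its fraction. Its difference was 0.59 ± 0.10 (SE, n = 3 per fraction), likewise 1.50-fold (limma, adjusted p = 0.0302). Within arrays, *raraa* minus *rarab* shifted by -0.0027 ± 0.041 between fractions. Both calls were unstable when 1 array was left out. They were lost without EGFP-negative replicate 2 or 3 or EGFP-positive replicate 1 or 2. There the adjusted p in limma was between 0.103 and 0.125, while the log2 differences stayed between 0.51 and 0.57. In the same fits the clusters called higher on the whole array also fell, from 2228 to between 1275 and 1462.

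A second cluster with the symbol *rarab* lies inside the gene on the opposite strand, from 33204026 to 33204354, with 18 probes. It gave 5.82, 5.57 and 5.67 on the EGFP-negative arrays and 6.69, 7.27 and 6.56 on the EGFP-positive arrays. Its difference was 1.15 ± 0.19 (SE, n = 3 per fraction) and passed the threshold (limma, adjusted p = 0.0220), and EGFP-positive replicate 2 stood highest. The files do not say what transcript it reads.

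The paralogues of RAR gamma did not pass. *rarga*, with 17 probes on the plus strand of chromosome 23 from 35898744 to 36016832, read 9.48, 9.53 and 9.36 in the EGFP-negative and 9.53, 9.68 and 9.55 in the EGFP-positive fraction. The lowest EGFP-positive and the highest EGFP-negative array were equal to the second decimal, so the lack of overlap is nominal. The difference of 0.13 ± 0.09 (SE, n = 3 per fraction) had a 95% interval from -0.09 to 0.34 (limma, adjusted p = 0.59), and a second cluster on the opposite strand differed by 0.35 (limma, adjusted p = 0.266).

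*rargb*, whose 22 probes lie on a sequence with no chromosome assigned, read 7.40, 7.24 and 7.03 on the EGFP-negative and 6.87, 6.96 and 6.82 on the EGFP-positive arrays. It was lower on every EGFP-positive array, and it varied more among the EGFP-negative arrays. The difference was -0.34 ± 0.11 (SE, n = 3 per fraction) with a 95% interval from -0.61 to -0.07, but it missed the threshold after adjustment over all clusters (limma, adjusted p = 0.22). Within arrays, *rarga* minus *rargb* shifted by 0.47 ± 0.078 and the fractions did not overlap, which followed from the lack of overlap of both single genes.

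Of 73 further genes listed for the pathway, 64 were measured, 11 of them were higher, 6 lower and 47 not called, with a median log2 difference of 0.02. The 9 others are not analysed here. At the same threshold 4.13% of all named genes were called higher and 3.48% lower.

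Among 17 measured genes for carotenoid cleavage and other retinoid oxidoreductases, 3 were higher and none was lower by limma, where at an unadjusted p under 0.05 there were 4 higher and 2 lower. Over all named genes 9.67% were higher and 8.87% lower at that unadjusted p. The 2 lower of 17 are near that share, while the 4 higher of 17 are above it, a gap that was not tested. The called genes were *rdh8a*, a retinol dehydrogenase known from photoreceptors, at 1.83 ± 0.16, *dhrs9*, known in mammals as a retinol dehydrogenase, at 1.64 ± 0.13, and *dhrs3b*, the paralogue of *dhrs3a*, at 1.22 ± 0.10 (SE of the log2 difference, n = 3 per fraction). Their adjusted p in limma was 0.00164, 0.00104 and 0.00139. Both *dhrs3* paralogues were therefore higher in the EGFP-positive fraction, by 2.59-fold and 2.32-fold. A second *rdh8a* cluster, below the array medians on every array, differed by 0.57 (limma, adjusted p = 0.0419). *rdh10b*, the paralogue of *rdh10a*, differed by 0.39 and was not called (limma, adjusted p = 0.115). The lowest of the list were *dhrs4*, *rdh14b* and *aldh8a1*, at -0.35, -0.31 and -0.12, none of which passed. Every array had *dhrs4* below the array medians. *aldh1a3*, which also makes retinoic acid, differed by -0.05, so that of the 2 measured retinaldehyde dehydrogenases of the Aldh1a class *aldh1a2* alone was called. The signal of *aldh1a3* was 5.27 to 5.56 over the 6 arrays, close to the array medians, so its small difference does not show equal expression.

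Of 15 measured genes for uptake, binding and storage, 2 were lower and 1 was higher, against 3.48% and 4.13% of all named genes. *crabp2a*, a cellular retinoic acid binding protein, read 9.61, 9.55 and 9.43 on the EGFP-negative and 6.79, 7.59 and 7.16 on the EGFP-positive arrays. The fractions stood almost 2 units apart, with EGFP-positive replicate 1 the lowest, and the signal was 5.10-fold lower, with a log2 difference of -2.35 ± 0.19 (SE, n = 3 per fraction; limma, adjusted p = 0.00129). Its paralogue *crabp2b* was 2.36-fold lower, at -1.24 ± 0.14 (limma, adjusted p = 0.00459). Further clusters of lower signal differed by -2.31 and -0.67 for *crabp2a* and by -0.72 and -0.46 for *crabp2b*. The last of these was not called (limma, adjusted p = 0.417). *stra6* differed by -0.34 and was not called in the cluster counted here. A second *stra6* cluster, of lower signal, differed by -0.57 and passed the threshold (limma, adjusted p = 0.0249). *ttr*, the carrier transthyretin, was nominally higher by 0.38 (limma, adjusted p = 0.0790), but its EGFP-positive signal of 4.81 to 5.02 lay near or below the array medians, and the call held in 1 of the 6 fits with an array left out. *lratb.2*, which by its name belongs to the retinol esterifying acyltransferases, differed by -0.44 (limma, adjusted p = 0.101), while *rbp2b*, a binding protein for retinol, differed by 0.24 and was not called. On every array *rbp2b* lay below the array medians.

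Of the 6 RXR genes, *rxrgb* and *rxraa* were higher and none was lower, against 4.13% and 3.48% of all named genes. *rxrgb* read 6.25, 5.999 and 6.23 on the EGFP-negative arrays and 8.11, 8.04 and 7.90 on the EGFP-positive arrays. The EGFP-positive arrays were tight and far above the others, at a difference of 1.86 ± 0.11 (SE, n = 3 per fraction), or 3.62-fold (limma, adjusted p = 0.000344). *rxraa* was higher by 0.87 ± 0.19 (limma, adjusted p = 0.0687), a call that held in 2 of the 6 fits with an array left out. The other 4 were not called, with *rxrab* at -0.19, *rxrbb* at -0.08, *rxrba* at 0.10 and *rxrga* at 0.22. Of these, *rxrab* lay below the array medians on every array. None of the 5 measured coregulators of retinoid receptors was called by limma, and 2 were higher and 0 lower at an unadjusted p under 0.05, against 9.67% and 8.87% of all named genes. The log2 differences were 0.23 for *nrip1b*, 0.09 for *ncoa2*, 0.08 for *ncoa3* and 0.01 for the corepressor gene *ncor1*.

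Among 21 genes listed as responding to retinoic acid, 5 were higher, 4 lower and 12 not called, with a median of 0.12. Over all named genes 4.13% were called higher and 3.48% lower. The list sets no direction of response for each gene, so these counts do not show more or less signalling. The nuclear receptor gene *nr2f1a* was the most increased, at 5.65, 5.30 and 5.81 on the EGFP-negative and 7.74, 7.55 and 7.27 on the EGFP-positive arrays. With no overlap, its difference was 1.93 ± 0.17 (SE, n = 3 per fraction), or 3.81-fold (limma, adjusted p = 0.00164). A second cluster with the symbol *nr2f1a*, of lower signal, differed by 0.72, or 1.65-fold (limma, adjusted p = 0.0106). The related gene *nr2f5* was the most decreased, at -1.15 ± 0.13 (limma, adjusted p = 0.00436). The homeobox genes *hoxa1a* and *meis3* were higher by 0.76 and 0.69 (limma, adjusted p = 0.0163 and 0.00626), and *hoxd4a* and the growth factor gene *fgf8a* were lower, at -0.70 and -0.62 (limma, adjusted p = 0.00542 and 0.00865).

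Calls of 3 further response genes were unstable, and each held in 1 of the 6 fits with an array left out. They were the cardiac gene *nkx2.5* at 0.97 (limma, adjusted p = 0.0878), *hoxb1a* at 0.64 (limma, adjusted p = 0.0683) and the kidney and hindbrain gene *hnf1ba* at -0.43 (limma, adjusted p = 0.0470). A second *hnf1ba* cluster, of lower signal, differed by -0.29 and was not called (limma, adjusted p = 0.153). *nkx2.5* lay below the array medians on every EGFP-negative array and on EGFP-positive replicate 3, at 4.74. It read 5.64 and 5.52 on EGFP-positive replicates 1 and 2. *hoxb1b*, *hoxb5b* and *tbx5a*, which retinoic acid is known to influence in the zebrafish hindbrain, heart field or fin field, differed by -0.08, -0.05 and -0.10 and were not called. Other *hox* genes of the list missed the threshold with larger differences. These were *hoxb3a* at 0.58, *hoxb4a* at 0.54, *hoxb5a* at 0.53 and *hoxa4a* at -0.61 (limma, adjusted p = 0.106, 0.134, 0.286 and 0.196). The signal of *tbx5a* was 5.04 to 5.28 over the 6 arrays, near the array medians, so its small difference does not show equal expression.

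**Figure D4:**
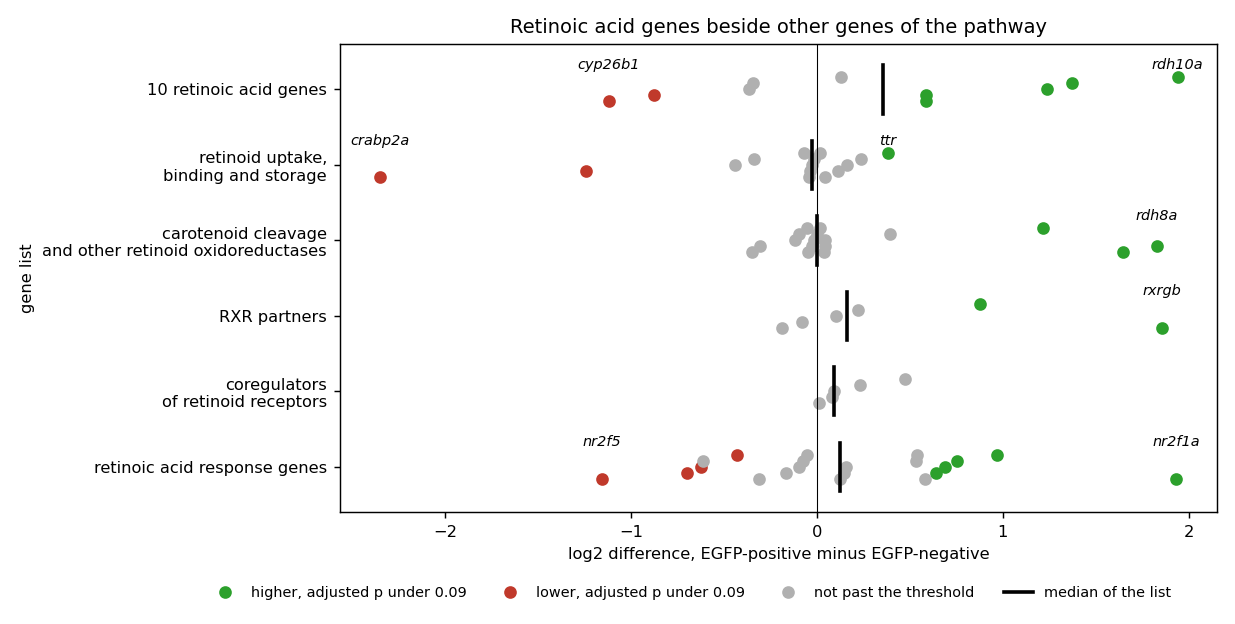
Log2 difference between EGFP-positive and EGFP-negative (x axis) of every measured gene of each list (y axis), a point per gene, in green or red where it passed an adjusted p under 0.09 in limma, with a black bar at the median of each list. The 10 retinoic acid genes have a median of 0.36 and the other lists lie between -0.03 and 0.16, while *crabp2a* at -2.35 has the most negative value shown.

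The genes whose centred values over the 6 arrays lay nearest to those of *aldh1a2* were *fzd8b*, a Wnt receptor gene, *cacna2d3*, a calcium channel subunit gene, and the provisional *LOC553499*, at Euclidean distances of 0.123, 0.246 and 0.253 log2 units. *fzd8b* read 8.82, 8.95 and 9.11 on the EGFP-negative and 9.93, 10.32 and 10.41 on the EGFP-positive arrays, and like *aldh1a2* it was lowest among EGFP-positive arrays in replicate 1. Nearest to *cyp26a1* were *far1*, a fatty acyl-CoA reductase gene, and the transcription factor genes *sox21a* and *pou5f3*, at distances of 0.180, 0.219 and 0.220. Their log2 differences were -0.81, -0.84 and -0.86, against -0.87 for *cyp26a1*. These distances describe 6 arrays of 2 fractions and carry no test. The genes were picked by these same values, so their likeness in array order and log2 difference is no separate observation.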

How the data were processed

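The authors corrected the background (MAS) and normalized ZebGene-1_1-st arrays by RMA to the gene level in ExpressionConsole, on chips based on Zv9, and deposited a log2 signal per transcript cluster and array. The deposited table also holds other columns, such as the probes per cluster, and the authors' own comparison (log2 difference, average, moderated statistic, p-values and log odds), which was not used. Arrays have no read depth, and the precision is limited by how few there are.

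The fractions were compared by lmFit and eBayes of limma 3.58.1 in R 4.3.3 over all 75212 clusters, two-sided, with Benjamini-Hochberg adjustment over all of them and a threshold of 0.09. The methods name siggenes, which was not used here. Tables and figures were made with Python 3.11.15, pandas 2.3.3, numpy 2.4.6 and matplotlib 3.10.9. The procedure was also run on simulated data with independent noise and changes only in clusters above the median signal. That setting holds no differences in cell composition between arrays, and its outcome is not reported here. Of the clusters, 37268 have 1 symbol, and 4222 were given the current symbol. Where a gene has several clusters, the one with the highest mean signal was used.

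The genes and lists were chosen with earlier results of these data known. Named are the 10 genes, the called genes of each other list with the 3 highest and 3 lowest by log2 difference, and the 3 genes nearest to *aldh1a2* and *cyp26a1*. *rdh10b*, *aldh1a3*, *stra6*, *hoxb1b*, *hoxb3a*, *hoxa4a*, *hoxb4a*, *hoxb5a*, *hoxb5b*, *tbx5a*, *tal1*, *hand2*, *egr2b* and *sox1a* were named after their values were seen. Some genes that the rule takes in are not reported here. Replicates are separate collections. Alternatives were an adjusted p under 0.05, a replicate block, eBayes with an intensity trend, a repeated quantile normalization, centring on array medians, a filter on low values, adjustment over clusters with a symbol, averaging a gene's clusters, and leaving out each array. Counting clusters with identical values once was added after seeing the data.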

Additional observations from a re-analysis of the deposited data

How the results depend on the processing

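The direction of all 10 genes was the same under every alternative, and the 7 called were the same 7 under every alternative that kept the 6 arrays. With 1 array left out, the number called higher ran from 3 to 5, where *raraa* and *rarab* were lost, and the number called lower was always 2. Of the other pathway genes, 11 were higher and 6 lower. With 1 array left out the higher numbered 7 to 11 and the lower 5 to 6, at an adjusted p under 0.05 there were 7 higher, and with adjustment over clusters with a symbol there were 10 lower. Over all clusters, 2228 were higher and 1384 lower in limma. With 1 array left out these counts ran from 1275 to 2034 and from 874 to 1118. The higher count was 1317 and 1462 without EGFP-negative replicates 2 and 3, and 1341 and 1275 without EGFP-positive replicates 1 and 2, and the lower count 874 and 922 without those EGFP-positive replicates. The cause was not tested. Replicates with the same number correlated at -0.03, 0.04 and 0.09 in their deviations from the means of their fractions, and the labels do not say that a number marks 1 collection, so pairing by number was not used. With the replicate block the same 7 genes were called, as were 16 other pathway genes, 14 of them among the 17 called without it, and 1745 clusters were higher and 1074 lower.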
